A study of Mus musculus with 2 samples.

Results

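Of the 27838 barcodes in 2 single-cell RNA-Seq (scRNA-Seq) libraries of aged mouse hindlimb muscle, 359 were rich in transcripts of the muscle fiber. These barcodes were chosen by their measured values. Fewer than 50% of their unique molecular identifiers (UMIs, which mark single RNA molecules) came from the Hbb- genes of hemoglobin beta, and at least 10% came from 11 fiber genes summed together. The 11 genes were Acta1, Ckm, Tnnt3, Myh1, Myh4, Mylpf, Tnnc2, Tnni2, Pvalb, Ttn and Myl1. No filter on gene number, mitochondrial transcripts or doublets was applied. In the ATRA+agonist library 275 of 10444 barcodes met the rule, and in the DMSO vehicle library 84 of 17394 did.

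Both libraries came from the hindlimb muscle of female C57Bl/6J mice, 24 months old. The ATRA+agonist mice had received 3 intramuscular injections, spread over a week, of all-trans retinoic acid (ATRA, which vitamin A is converted to) mixed with CD3254, an agonist of RXR-alpha, and BMS961, an agonist of RAR-gamma, and the DMSO vehicle mice had received the solvent. Per the study's methods, quadriceps and gastrocnemius were digested and the cells were sorted after staining with propidium iodide, a dye that enters cells with a broken membrane. The gate is described there as PI+ live cells. Each library pools the cells of 2 mice. With 1 library per group the data allow no test and no p-values, and the comparisons below set these 2 libraries side by side. Barcodes of 1 library are not replicates. All intervals are 95% intervals and cover counting error only.

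A skeletal muscle fiber is a long cell with many nuclei that is far larger than the mononucleated cells that droplet methods are made for. Its cytoplasm is filled with sarcomeres, the contractile units of actin and myosin filaments. Much of its messenger RNA codes for their parts and for the enzymes that supply them with ATP. Fibers are classed by the myosin heavy chain that they carry. Myh4 marks the fastest and most glycolytic fibers, Myh1 fast fibers of intermediate metabolism, Myh2 fast oxidative fibers and Myh7 slow oxidative fibers. The rule genes belong mostly to fast fibers, so that slow fibers are less likely to be taken by it.

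The ATRA+agonist library held 65197625 UMIs and the DMSO vehicle library 109343486, and no barcode had fewer than 500. Barcodes with 50% or more Hbb- UMIs numbered 1903 and 6783. The libraries shared 43 barcode sequences, and 1 of these was fiber-rich in 1 library. A single fiber-rich vehicle barcode stood apart in depth. It held 26453 of the 139516 UMIs of the 84 vehicle barcodes, while the next deepest held 4259 and the deepest ATRA+agonist barcode 8585. Differences between the libraries are therefore also given without this barcode where it changes a call or a sign.

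Fiber-rich barcodes made up a larger share of the ATRA+agonist library. They were 2.63% of its barcodes (2.33% to 2.96%) and 0.483% of the vehicle barcodes (0.385% to 0.598%), a ratio of 5.45 (4.28 to 6.95). Of barcodes under 50% Hbb- UMIs they were 3.22% of 8541 and 0.792% of 10611, and the ratio was 4.07 (3.19 to 5.18). The choice of filter moved this ratio by over 1.5 times. With fiber-rich barcodes limited to under 0.25% Hbb- UMIs, the limit of the study, and all barcodes kept as the denominator, it was 9.79 (7.04 to 13.6). Of the fiber-rich barcodes, 43 of the 84 vehicle and 34 of the 275 ATRA+agonist ones were at or above that limit. When the denominator was also limited to barcodes that pass all filters of the study, the shares were 206 of 7467 (2.76%) and 36 of 7517 (0.479%), and the ratio was 5.76 (4.05 to 8.20). The ATRA+agonist share was the higher under each of these counts.

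The barcodes were set apart from the rest by a sparsely filled range of values. Among barcodes under 50% Hbb- UMIs, 57 ATRA+agonist and 23 vehicle barcodes had 1% to 10% of their UMIs from the 11 genes, and 8209 and 10504 had under 1%. Just inside the limit stood ATRA+agonist barcodes at 10.3%, 10.7% and 10.8% and vehicle barcodes at 10.9%, 11.8% and 12.5%. Just outside it stood ATRA+agonist barcodes at 9.74%, 9.68% and 9.54% and vehicle barcodes at 8.60%, 8.46% and 7.21%. The deepest vehicle barcode was the one at 11.8%, close to the limit.

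**Figure D1:**
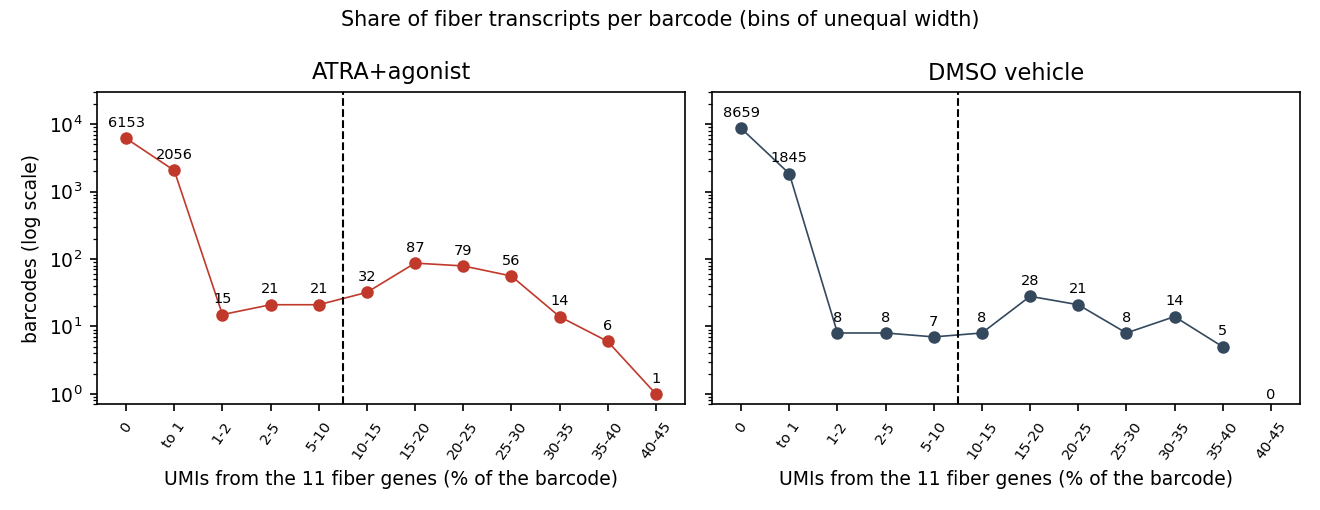
Number of barcodes under 50% Hbb- UMIs (y axis, log scale) by the share of their UMIs from the 11 fiber genes (x axis, percent, bins of unequal width) in the ATRA+agonist and the DMSO vehicle library. The number of barcodes is printed at each point, an empty bin is marked 0, and the dashed line is the 10% limit. Most barcodes are at 0 (6153 and 8659), few lie between 1% and 10%, and a second group of barcodes peaks between 15% and 25% in both libraries.

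The 11 genes that chose the barcodes were present in similar proportions in both libraries, which is a description and not a test. Together they took a median of 21.4% of the UMIs of an ATRA+agonist barcode (10.3% to 40.1%) and 21.6% of a vehicle barcode (10.9% to 37.9%). Acta1, the skeletal actin of the thin filament, was the most abundant, with 5.23% of all UMIs of the ATRA+agonist barcodes and 4.87% of those of the vehicle barcodes (5.82% without the deepest). Mylpf and Myl1, the regulatory and the essential light chain of fast myosin, held 3.80% and 2.39% in the ATRA+agonist library and 3.77% and 2.66% in the vehicle library (4.11% and 2.87% without the deepest). These 3 genes had at least 1 UMI in all 359 barcodes.

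The fast troponin complex, which makes the thin filament respond to calcium, was complete. Tnnt3, Tnnc2 and Tnni2 held 3.02%, 3.00% and 1.88% of ATRA+agonist UMIs and 2.85%, 2.94% and 1.95% of vehicle UMIs (3.27%, 3.11% and 2.21% without the deepest). Ckm, the creatine kinase that restores ATP from phosphocreatine, held 1.86% and 1.49% (1.68% without the deepest). Tnnt3 and Tnni2 had UMIs in 82 of 84 vehicle barcodes, and 4 other genes of the 11 were carried by far fewer barcodes. Pvalb, the calcium buffer of the fastest fibers, had UMIs in 178 of 275 and 55 of 84 barcodes, Ttn (titin, the spring of the sarcomere) in 154 and 38, Myh4 in 124 and 46, and Myh1 in 105 and 23. Most of the difference in Ttn lay in the deepest barcode. Ttn held 0.106% of ATRA+agonist UMIs and 0.326% of vehicle UMIs, but 0.116% without that barcode.

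Genes outside the rule also gave the barcodes a fiber profile. Of 2409 genes with at least 20 UMIs over the fiber-rich barcodes of both libraries, 190 (7.89%) were at least 8-fold higher (3 on the log2 scale, with 10 CPM added to both sides) than in the other barcodes under 50% Hbb- UMIs in both libraries. CPM is UMIs per 1000000 UMIs of the barcodes in question. The 10 leading genes outside the rule were Tcap, Pgam2, Eno3, Tpm1, Atp2a1, Mb, Cox6a2, Myoz1, Car3 and Tpm2, with log2 ratios of 7.22 to 8.20. They hold parts of the thin filament (Tpm1 and Tpm2, tropomyosins that cover actin) and of the Z-disc (Tcap and Myoz1), the calcium pump of the fast sarcoplasmic reticulum (Atp2a1), and muscle forms of glycolytic enzymes (Pgam2 and Eno3). They also hold the oxygen store myoglobin (Mb) and the muscle subunit Cox6a2 of cytochrome oxidase. Tpm1 alone held 12161 ATRA+agonist and 4080 vehicle UMIs and was present in 275 of 275 and 83 of 84 barcodes. These genes were picked as the highest in these same barcodes, with a minimum of UMIs counted in them. They therefore describe what the barcodes held and are no test of the label.

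The barcodes carried little nuclear RNA. Malat1, an abundant long noncoding RNA that stays in the nucleus, was at 0 UMIs in 238 of 275 ATRA+agonist and 74 of 84 vehicle barcodes. A list of 6 nuclear RNAs (Malat1, Neat1, Meg3, Mirg, Rian and Kcnq1ot1) was at 0 in 84.0% (79.1% to 88.1%) and 83.3% (73.6% to 90.6%), against 14.8% and 18.8% of the other barcodes. Of the other barcodes with under 2000 UMIs, 58.0% and 56.6% were also at 0, with Malat1 at 9647 and 11265 CPM. Shallow barcodes are more often at 0 by counting alone, so each barcode was thinned to 300 UMIs. The other barcodes in that comparison include the deep ones. A nuclear RNA UMI was then found in 6.55% of ATRA+agonist and 5.95% of vehicle barcodes, against 78.2% and 74.6% of the other barcodes (unthinned 16.0% and 16.7% against 85.2% and 81.2%). The level of Malat1 was 399 CPM in the ATRA+agonist barcodes and 186 CPM in the vehicle barcodes without the deepest, against 20738 and 20847 CPM in the other barcodes. The deepest vehicle barcode was the exception, as it held 1009 of the 1030 Malat1 UMIs of the vehicle barcodes and had 3.97% of its UMIs from the 6 RNAs.

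**Figure D2:**
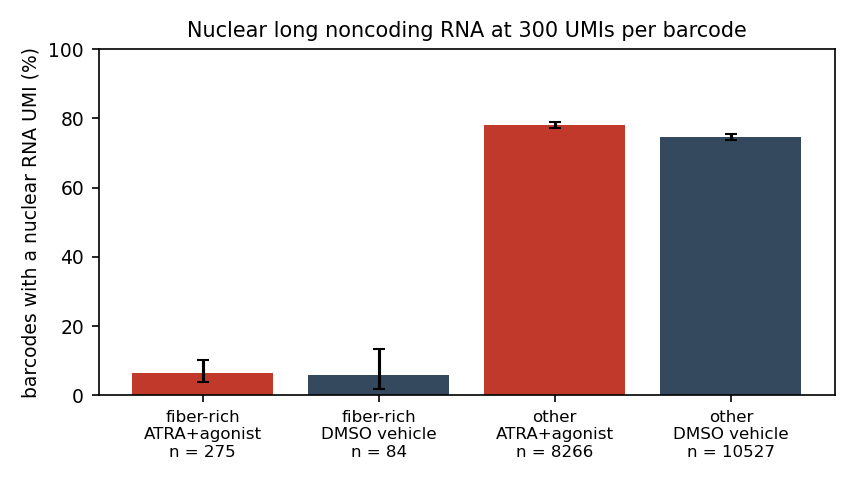
Share of barcodes with at least 1 UMI of 6 nuclear long noncoding RNAs (y axis, percent) after each barcode was thinned to 300 UMIs, for fiber-rich and other barcodes of both libraries (n below each bar). Error bars are exact 95% binomial intervals. Both fiber-rich bars are under 7% and both bars of other barcodes are above 70%.

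The barcodes were also shallow. They held a median of 956 UMIs and 432 genes in the ATRA+agonist library and 1089 UMIs and 434.5 genes in the vehicle library, against 4604 and 3994 UMIs in the other barcodes. At 300 UMIs per barcode they showed a median of 183 and 178 genes, against 246 and 243. Mitochondrial transcripts took a median of 3.09% and 3.23% of their UMIs. Of the study's filters, the minimum of 300 genes left out 45 ATRA+agonist and 13 vehicle barcodes, the limit of 20% mitochondrial UMIs 1 and 1, and the maximum of 5000 genes 0 and 1. The limit of 0.25% Hbb- UMIs left out 34 and 43. All filters together kept 206 of 275 ATRA+agonist barcodes (74.9%, 69.4% to 79.9%) and 36 of 84 vehicle barcodes (42.9%, 32.1% to 54.1%). Fiber-rich barcodes were thus kept more often in the ATRA+agonist library. The Hbb- limit was passed by 87.6% and 48.8%, and the minimum of 300 genes by 83.6% and 84.5%. The intervals do not overlap, but they cover counting error and not differences between mice.

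Markers of other cells were sparse in most barcodes. Of 10 lists of markers of other cell types (hemoglobin apart), 171 of 275 ATRA+agonist and 40 of 84 vehicle barcodes had no UMI at all. At least 2 UMIs of any 1 list were present in 35 ATRA+agonist barcodes (12.7%, 9.03% to 17.3%) and 18 vehicle barcodes (21.4%, 13.2% to 31.7%), and these intervals overlap. Endothelial markers were the most frequent. All 8 of them had UMIs in each library, 377 in the ATRA+agonist barcodes (958 CPM) and 158 in the vehicle barcodes (1132 CPM, with 56 of the 158 in the deepest), against 4696 and 4949 CPM in the other barcodes. Fabp4, a fatty acid carrier of capillaries, made up 271 and 101 of these UMIs. Doublets were not removed, and the part of endothelial RNA in the results below was not tested.

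Stem cell and stromal markers were close to 0. The markers of muscle stem cells (MuSCs) had 4 UMIs in the ATRA+agonist barcodes and 0 in the vehicle barcodes, and Pax7, the factor that defines these cells, was at 0 in both. Markers of fibro-adipogenic progenitors (FAPs), the mesenchymal cells between the fibers, had 27 and 17 UMIs (68.6 and 122 CPM), against 12612 and 11627 CPM in the other barcodes, and their defining receptor Pdgfra was at 0 in both libraries. Macrophage markers had 9 and 5 UMIs and T cell markers 1 and 0. Markers of the tenocyte, Schwann cell, neutrophil, B cell and smooth muscle or pericyte lists summed to between 0 and 42 UMIs per library. The barcodes held far less of the FAP markers than the other barcodes of the same library.

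Transcripts of the rule genes were also found outside these barcodes. The 11 rule genes summed to 265 CPM in the other ATRA+agonist barcodes and to 96.6 CPM in the other vehicle barcodes, a 2.75-fold difference. Among barcodes with under 1% of such UMIs the levels were 120 and 60.8 CPM (1.97-fold), and among barcodes with 50% or more Hbb- UMIs they were 57.5 and 23.2 CPM (2.47-fold). Rule-gene transcripts outside the fiber-rich barcodes were thus at a higher level in the library with the larger share of such barcodes. Their part in that share was not tested. Of the 13271 and 5459 rule-gene UMIs in the other barcodes, 5963 and 3431 lay in barcodes under 1%. Ttn made up 17.5% and 15.8% of these, against 0.484% and 1.51% in fiber-rich barcodes. In barcodes with 50% or more Hbb- UMIs it made up 0.353% and 0.817%. Whether these transcripts were free fiber RNA was not tested. The fiber-rich barcodes held 85.9% and 81.9% of all rule-gene UMIs of their libraries, though only 0.604% and 0.128% of all UMIs.

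Next, the barcodes were typed by myosin heavy chain. Myh2, Myh1, Myh4 and Myh8 lie side by side on chromosome 11 (mm10), from 67171027 to 67197517, 67200052 to 67224575, 67238029 to 67260446 and 67277124 to 67308634, and their sequences are close to each other, so that reads can be split wrongly between them. A barcode with at least 3 UMIs over Myh1, Myh2, Myh4 and Myh7 was typed by the isoform that held at least 2 of every 3 of these UMIs, and was called mixed otherwise. Of 149 ATRA+agonist barcodes that could be typed, 75 were Myh4-typed (50.3%, 42.0% to 58.6%), 45 Myh1-typed (30.2%, 23.0% to 38.3%), 17 Myh2-typed (11.4%, 6.79% to 17.6%) and 12 mixed. Of 44 vehicle barcodes 28 were Myh4-typed (63.6%, 47.8% to 77.6%), 11 Myh1-typed (interval 13.2% to 40.3%), 4 Myh2-typed and 1 mixed. The order of the types was the same in both libraries, and the intervals of each type overlap between libraries. Myh1 and Myh4 are rule genes, whereas Myh2 and Myh7 are not. The rule therefore enters these shares and their order, which describe the chosen barcodes and are no test. The rule genes took a median of 26.2% of UMIs in Myh4-typed and 17.6% in Myh2-typed ATRA+agonist barcodes, and 24.4% and 17.8% in vehicle barcodes. The Myh4-typed share moved with the setting, to 65.6% and 77.8% among barcodes with at least 10 myosin heavy chain UMIs. It was 60.0% and 78.6% after thinning to 300 UMIs, and 61.7% and 70.4% at a 20% limit of the rule.

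Slow, embryonic and neonatal myosins were at or near 0. No barcode was Myh7-typed in either library (0 of 149, which allows a share of up to 2.01% where 0 is taken to allow up to 3 barcodes, and 0 of 44, up to 6.82%). Myh7 had 0 UMIs in the ATRA+agonist and 3 in the vehicle barcodes, and Myh3, the embryonic form, had 0 in both. Myh8, the neonatal form, had 32 UMIs in the vehicle library, all of them in the deepest barcode, and 0 in the ATRA+agonist library.

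Neighbouring types shared barcodes, and distant ones did not. Myh1 and Myh4 were found together in 30 of the 199 ATRA+agonist barcodes that held either, and in 8 of 61 vehicle barcodes. Myh1 and Myh2 were found together in 19 of 134 and in 6 of 29. Myh2 and Myh4 were never found together, in 0 of 172 and 0 of 58 barcodes that held either. Joint presence thus followed the order Myh4, Myh1, Myh2 in both libraries.

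**Figure D3:**
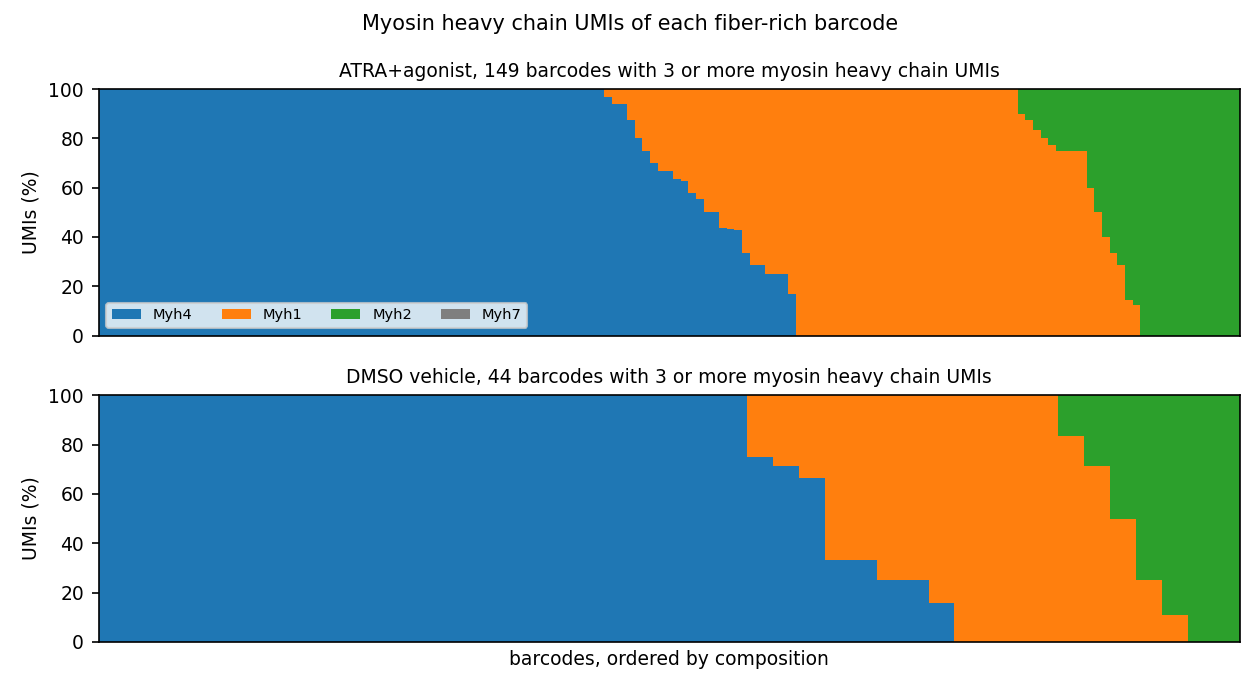
Makeup of the myosin heavy chain UMIs (y axis, percent) of each fiber-rich barcode with at least 3 such UMIs (x axis, 1 column per barcode, ordered by composition), for the ATRA+agonist (149 barcodes) and the DMSO vehicle library (44 barcodes). Colors mark Myh4, Myh1, Myh2 and Myh7. Columns with 2 isoforms combine Myh4 with Myh1 or Myh1 with Myh2, and none combines Myh4 with Myh2.

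The myosin types differed in genes that had no part in the typing. In what follows the deepest vehicle barcode is left out, which leaves 10 Myh1-typed vehicle barcodes, and the types are described without a test. Pvalb is a rule gene, so that its values are only a description of barcodes that it helped to choose. It was at 5541 CPM in Myh4-typed, 1671 CPM in Myh1-typed and 0 CPM in Myh2-typed ATRA+agonist barcodes, and at 7352, 949 and 267 CPM in vehicle barcodes. It had UMIs in 72 of 75, 32 of 45 and 0 of 17 ATRA+agonist barcodes and in 27 of 28, 5 of 10 and 2 of 4 vehicle barcodes. Pvalb was highest in the Myh4 type in both libraries.

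Fast sarcomere genes outside the rule went with Myh4. Actn3, the alpha-actinin of fast Z-discs, was at 3497, 1114 and 115 CPM in Myh4-, Myh1- and Myh2-typed ATRA+agonist barcodes and at 3356, 558 and 133 CPM in vehicle barcodes. Mybpc2, the fast myosin binding protein C, was at 1292, 332 and 0 CPM and at 1646, 223 and 0 CPM. Tpm1 was at 45168, 20902 and 23499 CPM and at 42042, 22055 and 18010 CPM. All 3 were highest in the Myh4 type in both libraries. Mybpc1, the slow myosin binding protein C, went the other way, with 498, 1410 and 1266 CPM in ATRA+agonist and 449, 949 and 534 CPM in vehicle barcodes.

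Oxidative genes went with Myh1 and Myh2. Mb was at 1521, 6434 and 9664 CPM in Myh4-, Myh1- and Myh2-typed ATRA+agonist barcodes and at 1154, 7091 and 7337 CPM in vehicle barcodes. It had UMIs in 42 of 75, 44 of 45 and 17 of 17 ATRA+agonist barcodes and in 14 of 28, 10 of 10 and 4 of 4 vehicle barcodes. Fabp3, which carries fatty acids to the mitochondria of muscle, was at 439, 1706 and 3739 CPM and at 449, 893 and 1868 CPM. Cox7a1, the muscle subunit of cytochrome oxidase, was at 405, 1078 and 1553 CPM and at 406, 949 and 1467 CPM. The 3 genes were lowest in the Myh4 type and highest in the Myh2 type in each library.

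The lists of metabolic genes followed the same order. The 17 glycogen and glycolysis genes took 5.60%, 4.19% and 3.05% of the UMIs of Myh4-, Myh1- and Myh2-typed ATRA+agonist barcodes and 5.29%, 4.47% and 2.65% of the UMIs of vehicle barcodes. The 14 oxidative genes took 1.62%, 2.89% and 3.94%, and 1.36%, 2.90% and 3.34%. Single barcodes overlapped between types, since the oxidative share ran from 0.150% to 3.17% in Myh4-typed, from 0.374% to 5.05% in Myh1-typed and from 1.66% to 7.94% in Myh2-typed ATRA+agonist barcodes. The 13 protein genes encoded by the mitochondrial genome did not follow this order, with 2.64%, 1.91% and 2.25% in ATRA+agonist and 3.11%, 1.95% and 2.96% in vehicle barcodes.

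**Figure D4:**
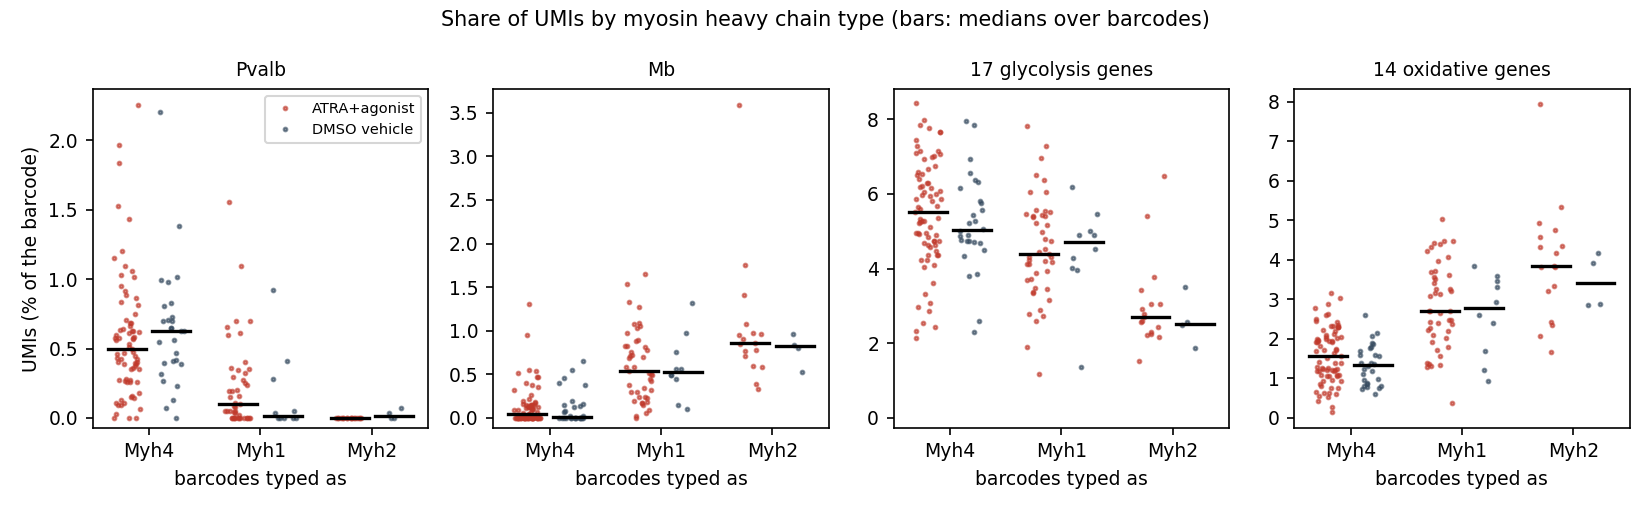
Share of UMIs (y axis, percent of a barcode) from Pvalb, Mb, 17 glycogen and glycolysis genes and 14 oxidative genes in each fiber-rich barcode, by myosin heavy chain type (x axis) and library. Points are barcodes and black bars are medians over barcodes, and the deepest vehicle barcode is left out. Pvalb and the glycolysis genes are highest in the Myh4 type and Mb and the oxidative genes highest in the Myh2 type in both libraries.

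Some small heat shock genes were higher in the oxidative types. Cryab, the chaperone of desmin and actin filaments, was at 2610, 5676 and 7536 CPM in Myh4-, Myh1- and Myh2-typed ATRA+agonist barcodes and at 1325, 4467 and 9338 CPM in vehicle barcodes. The stress list of 17 immediate early and chaperone genes took 0.543%, 1.18% and 1.31% of UMIs and 0.383%, 0.882% and 1.65%. Cryab is in this list and held 309 of 643, 479 of 999 and 262 of 457 of its ATRA+agonist UMIs. In vehicle barcodes it held 62 of 179, 80 of 158 and 70 of 124. Fos, Jun, Junb and Egr1 were called higher in Myh1-typed than in Myh4-typed ATRA+agonist barcodes. No immediate early gene of the list was called in that comparison in the vehicle library. Of this list Cryab and Hspb6 were called higher in Myh2-typed than in Myh4-typed barcodes in both libraries, whereas Hspb1 and Hspa8 were not called in any of these comparisons. Actc1, the cardiac actin that skeletal fibers express before birth and again after injury, went with Myh4 among the Myh4-, Myh1- and Myh2-typed barcodes. It had 80 UMIs in 15 of 75 Myh4-typed ATRA+agonist barcodes and 0 in 45 Myh1-typed and 17 Myh2-typed ones. In the vehicle library it had 88 UMIs in 9 of 28 Myh4-typed barcodes and 0 in 10 Myh1-typed and 4 Myh2-typed ones. Untyped barcodes held Actc1 too, with 8 UMIs in 4 of 126 ATRA+agonist and 58 UMIs in 8 of 40 vehicle barcodes.

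Across all genes, a difference was called where it was at least 2-fold and its counting interval left out 0 on the log2 scale. A gene with 0 UMIs in 1 of 2 compared groups has no log2 ratio and could not be called. Myh1-typed over Myh4-typed ATRA+agonist barcodes gave 82 of 1102 genes called higher (7.44%) and 40 lower (3.63%), and vehicle barcodes gave 59 of 406 higher (14.5%) and 24 lower (5.91%). Both libraries called 15 genes higher and 7 lower of 406 tested in both, and 1 gene (Fabp4) went in opposite directions. The genes higher in both included Mb, Cox7a1, Cryab, Hspb7, Lmod2, Mybpc1, Actn2 and Sln, and those lower in both were Actn3, Mybpc2, Lgals1, the hemoglobin genes Hba-a1 and Hba-a2, Myh4 and Pvalb. Myh1 is among the 15 and Myh4 among the 7 through the typing itself, and Pvalb is a rule gene. Hemoglobin RNA thus moved with the type contrast, and its part in the other differences was not tested. Of the oxidative list 4 of 11 tested genes were higher in the ATRA+agonist and 2 of 7 in the vehicle library, and none was lower, while of the glycolysis list 0 of 13 and 0 of 11 were higher and 0 and 1 lower.

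Myh2-typed over Myh4-typed barcodes gave 96 of 857 genes called higher (11.2%) and 46 lower (5.37%) in the ATRA+agonist library, and 45 of 353 higher (12.7%) and 18 lower (5.1%) in the vehicle library. Both libraries called 14 higher and 7 lower of 352 tested in both. Those higher in both included Mb, Fabp3, Cox7a1, Hspb6, Cryab and Lmod2, and those lower in both included the glycolytic enzymes Tpi1, Pkm and Ldha, the Z-disc genes Actn3 and Myoz1, and the rule gene Ttn. The oxidative list had 5 of 10 and 4 of 7 tested genes higher and none lower, against the shares of all genes just given. The glycolysis list had 4 of 12 and 5 of 11 lower and none higher. Gm42418 and Hras, both outside the rule for named genes, were called in opposite directions by the 2 libraries. Genes at 0 in 1 type are missing from the calls between Myh2-typed and Myh4-typed barcodes. In the ATRA+agonist library these include Pvalb, Mybpc2 and Actc1, with 656, 153 and 80 UMIs in Myh4-typed and 0 in Myh2-typed barcodes.

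Slow-fiber transcripts were concentrated in a few barcodes. Tnnt1, Tnnc1 and Tnni1 (the slow troponins), Myl2 (slow myosin light chain), Tpm3 (slow tropomyosin) and Myh7 summed to 116 UMIs in 18 of 275 ATRA+agonist barcodes and to 242 UMIs in 6 of 84 vehicle barcodes. In the vehicle library 90.5% of them came from 2 barcodes, with 138 of 1178 UMIs (11.7%) and 81 of 1363 UMIs (5.94%), which held all 6 genes. These 2 barcodes stood at 12.7% and 13.6% of UMIs from the rule genes. The ATRA+agonist barcode with the most slow UMIs held 51 among 7633 (0.668%) and was Myh2-typed. Fiber-rich barcodes with at least 3% of slow UMIs were thus found only in the vehicle library, and there were 2 of them.

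The rule left out other slow barcodes in both libraries. Among all barcodes under 50% Hbb- UMIs, 11 ATRA+agonist barcodes (0.105% of the library, 0.0526% to 0.188%) and 8 vehicle barcodes (0.0460%, 0.0199% to 0.0906%) had at least 3% of their UMIs from the 6 slow genes. None of the 11 and 2 of the 8 had passed the rule, and the median share of the rule genes in them was 6.66% and 6.59%. With slow genes added to the rule the fiber-rich barcodes numbered 285 and 88. Slow-rich barcodes were therefore present in both libraries, and a difference in slow genes between the fiber-rich barcodes of the libraries turns on which of them passed the 10% limit.

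The libraries were then compared gene by gene in the pooled UMIs of the fiber-rich barcodes, to ask whether these differed after the injections. Over all 359 barcodes 60 of 2409 genes (2.49%) were called higher and 129 (5.35%) lower in the ATRA+agonist library. The deepest vehicle barcode held at least 50% of the vehicle UMIs of 80 of the 129 lower genes. Without it, 49 of 2214 genes (2.21%) were called higher and 34 (1.54%) lower, and 21 higher and 21 lower calls were shared with the count over all barcodes. The median log2 ratio over all genes was 0.07 with and 0.11 without this barcode.

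Several genes were lower over all barcodes through the deepest vehicle barcode. Malat1 had 157 UMIs in the ATRA+agonist and 1030 in the vehicle barcodes (log2 ratio -4.21, -4.46 to -3.97), but 21 without the deepest, and the ratio was then 1.10 (0.44 to 1.83). H19, an imprinted noncoding RNA, had 170 and 287 UMIs, but 39 without it, and its ratio changed from -2.25 to 0.32. Sln (sarcolipin, an inhibitor of the calcium pump) had 87 and 144 UMIs, but 36 without it, and its ratio changed from -2.22 (-2.62 to -1.83) to -0.53 (-1.10 to 0.08). These genes were called lower with the barcode, and H19 and Sln were not called without it, while Malat1 was then called higher. Malat1 lay in few barcodes of both libraries, 37 of 275 ATRA+agonist and 9 of the other 83 vehicle barcodes. The ATRA+agonist barcodes with the most held 41, 38 and 24 of the 157 UMIs. The vehicle barcode with the most after the deepest held 12 of the 21. Igfbp5, a binding protein of insulin-like growth factors, had 28 and 72 UMIs, 69 of the vehicle ones in this barcode. Ryr1, the calcium release channel, had 41 and 48 UMIs, 39 of them in this barcode, and its ratio changed from -1.72 to 0.39.

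**Figure D5:**
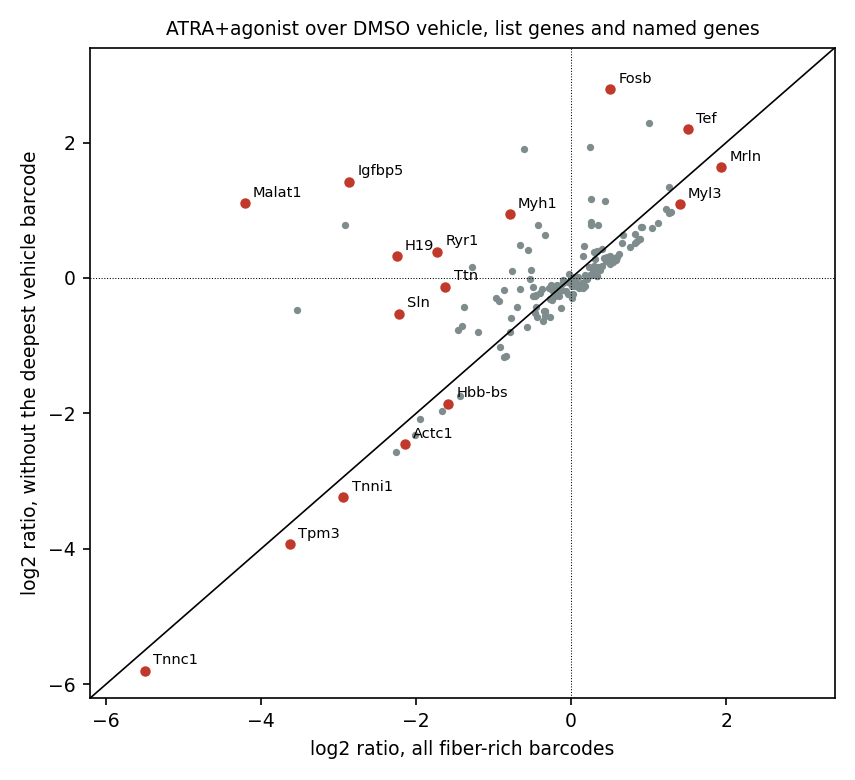
Log2 ratio ATRA+agonist over DMSO vehicle of 161 genes (points, genes of the lists, leading genes over other barcodes and largest ratios, with at least 20 UMIs) in all fiber-rich barcodes (x axis) and without the deepest vehicle barcode (y axis). The diagonal marks equal values and red points are labelled genes. Malat1, Igfbp5, H19 and Ryr1 are below 0 on the x axis and above 0 on the y axis, whereas Tnnc1, Tpm3, Tnni1, Actc1 and Hbb-bs are below 0 on both.

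Fast contractile genes outside the rule were not called. None of the 7 fast sarcomere genes outside the rule was called, with or without the deepest barcode. The 11 rule genes chose the barcodes by their sum in both libraries, so that their ratios are largely set by the rule. Ttn alone of them was called lower (log2 ratio -1.62), and not without that barcode (-0.13). Tpm1 was at 30897 CPM in the ATRA+agonist and 29244 CPM in the vehicle barcodes (log2 ratio 0.079, 0.028 to 0.13), and without the deepest barcode its ratio was -0.12 (-0.18 to -0.071). Myh2 had 142 UMIs in 48 of 275 ATRA+agonist barcodes and 28 UMIs in 12 of 84 vehicle barcodes (0.85, 0.25 to 1.49; without the deepest 0.54, -0.05 to 1.18), which was under 2-fold. Myh1 changed sign with the deepest barcode, from -0.79 (-1.02 to -0.56) to 0.94 (0.56 to 1.35). Of 17 tested scaffold genes of the Z-disc and M-band 0 were called higher and 1 lower, against 2.49% and 5.35% of all genes. Without the deepest barcode none of 16 was called.

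Slow sarcomere genes formed the list with the most calls. Of 11 genes 7 were tested, 1 was higher and 5 were lower (median log2 ratio -2.02, and -2.32 without the deepest barcode), against 2.49% and 5.35% of all genes. Tnnc1 had 2 UMIs in the ATRA+agonist and 32 in the vehicle barcodes, Tpm3 13 and 57, Tnni1 7 and 19, Myl2 39 and 56, and Tnnt1 55 and 75. The 2 slow-rich vehicle barcodes held all vehicle UMIs of Tnnc1 and Tnni1. Without these barcodes the log2 ratios of Tnnt1, Myl2 and Tpm3 were 0.67 (-0.24 to 1.71), 0.44 (-0.59 to 1.61) and 2.18 (-0.56 to 7.59), and none was called. All 5 lower calls thus rested on 2 barcodes.

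Myl3, the slow and ventricular essential light chain, was the slow gene that was higher. It had 290 UMIs in 28 ATRA+agonist barcodes and 39 UMIs in 6 vehicle barcodes (log2 ratio 1.40, 0.91 to 1.92; without the deepest 1.09, 0.61 to 1.62). A single Myh2-typed barcode held 98 of the 290 UMIs. In Myh2-typed barcodes Myl3 was at 4688 CPM in the ATRA+agonist library, with UMIs in 6 of 17 barcodes, and at 133 CPM in the vehicle library, with 1 UMI in 4 barcodes. Its direction turned with the rule, to -0.44 at a limit of 5% and to -0.41 with slow genes added.

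Of the calcium handling list 1 of 16 genes was called higher and 2 lower, against 2.49% and 5.35% of all genes, and without the deepest barcode 1 and 0, against 2.21% and 1.54%. Mrln (myoregulin, a micropeptide that inhibits the calcium pump of muscle) was higher, with 54 UMIs in 39 ATRA+agonist barcodes and 5 UMIs in 4 vehicle barcodes (log2 ratio 1.94, 0.63 to 3.62; without the deepest 1.63, 0.32 to 3.31). Atp2a1 had 1523 and 602 UMIs (-0.16, -0.29 to -0.02) and was thus close to equal. Trdn (triadin, which anchors the calcium store) had 319 and 222 UMIs, at -0.97, and -0.29 without the deepest barcode.

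Energy genes stayed within 2-fold with few exceptions. None of 17 glycogen and glycolysis genes and none of 13 mitochondrially encoded genes was called, with or without the deepest barcode. Of 13 tested oxidative genes 0 were higher and 1 was lower, against 2.49% and 5.35% of all genes. Mb had 1814 UMIs in 207 ATRA+agonist barcodes and 438 UMIs in 59 vehicle barcodes (log2 ratio 0.55, 0.40 to 0.71; without the deepest 0.26, 0.11 to 0.42). Fabp3 had 606 and 145 UMIs (0.57, and 0.29 without), and Ckmt2, the mitochondrial creatine kinase, had 185 and 37 (0.83, and 0.64 without). None of these 3 oxidative genes was called. Within Myh4-typed barcodes the ratios were 0.40 (-0.048 to 0.86) for Mb, -0.031 (-0.79 to 0.77) for Fabp3 and 0.34 (-0.72 to 1.53) for Ckmt2, so that no difference was detectable there. The gene called lower was Ppargc1a, a coactivator of mitochondrial biogenesis, with 10 UMIs in 8 of 275 ATRA+agonist barcodes and 17 UMIs in 10 of 84 vehicle barcodes (-2.26, -3.55 to -1.05, and -2.57 without the deepest).

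Ankrd23, a stretch-responsive ankyrin repeat protein of the sarcomere, was among the largest higher ratios and was broadly present. It had 748 UMIs in 219 of 275 ATRA+agonist barcodes and 111 UMIs in 43 of 84 vehicle barcodes. The log2 ratio was 1.26 (0.97 to 1.56), and 0.95 (0.66 to 1.25) without the deepest barcode, which is just under 2-fold. It did not go with a myosin type in the ATRA+agonist library, at 1892, 2062 and 1755 CPM in Myh4-, Myh1- and Myh2-typed barcodes, against 1176, 1173 and 534 CPM in the vehicle library. The related gene Ankrd2 had 104 and 20 UMIs (0.88, 0.18 to 1.65; without the deepest 0.58, -0.12 to 1.35).

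The other largest higher ratios came from fewer UMIs. They were Mtfr1l, a mitochondrial fission regulator (88 and 13 UMIs, log2 ratio 1.26), Gabarapl2, a protein of autophagosomes (92 and 14, 1.22), Chpt1, an enzyme of phosphatidylcholine synthesis (98 and 16, 1.12), and Msrb1, a methionine sulfoxide reductase (99 and 17, 1.05). Arpp19, Nipsnap2 and Pink1 had ratios of 0.91, 0.90 and 0.88. Without the deepest barcode Mtfr1l (1.34) and Gabarapl2 (1.02) were still called, and Chpt1 (0.82) and Msrb1 (0.74) were not.

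Actc1 was lower in the ATRA+agonist library and did not depend on the deepest barcode, which held none of it. It had 93 UMIs in 21 of 275 ATRA+agonist barcodes and 146 UMIs in 17 of 84 vehicle barcodes (log2 ratio -2.15, -2.54 to -1.76; without the deepest -2.45). The 2 vehicle barcodes with the most held 49 and 36 of these UMIs. Within Myh4-typed barcodes Actc1 was at 676 CPM in the ATRA+agonist and 1881 CPM in the vehicle library (-1.48, -1.93 to -1.02). Of the denervation, fusion and regeneration list 3 of 12 genes could be tested, and Actc1 was the 1 that was called. Over all genes 5.35% were called lower.

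Stress genes differed little over all barcodes. Of 14 tested genes 0 were called higher and 1 lower, and without the deepest barcode 2 of 13 were higher (Fosb and Junb) and 1 lower (Atf3), against 2.21% and 1.54% of all genes. Fosb, an immediate early gene, had 24 and 6 UMIs, 5 of the vehicle ones in the deepest barcode, and Junb had 40 and 12, with 9 in it. Cryab had 2097 UMIs in 235 ATRA+agonist barcodes and 468 UMIs in 66 vehicle barcodes (0.67, 0.52 to 0.82; without the deepest 0.64, 0.48 to 0.80). Cryab was thus higher in the ATRA+agonist library by less than 2-fold, and in Myh4-typed barcodes by 0.98 (0.58 to 1.40).

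Other lists held few UMIs. Their counts stand beside 2.49% of all genes called higher and 5.35% lower, and 2.21% and 1.54% without the deepest barcode. Of the circadian list 1 of 4 tested genes was called, Tef (a clock-driven transcription factor), higher with 32 and 4 UMIs (without the deepest barcode 2.20, 0.23 to 5.31), against 2.49% of all genes. Tef was not called under 10 of the alternatives run. Fndc5, the precursor of the secreted factor irisin, was the 1 of 3 tested secreted factors that was called higher (55 and 8 UMIs, 1.28), and not without the deepest barcode (0.98). Of 6 atrophy and autophagy genes 0 were called higher and 1 lower, and none without the deepest barcode, and the ubiquitin ligases Fbxo32 (56 and 15 UMIs, 0.40) and Trim63 (53 and 27, -0.52, and 0.12 without the deepest barcode) had intervals that include 0. Of 5 glucocorticoid-induced genes Pdk4 was called lower (38 and 31 UMIs, -1.20), and not without the deepest barcode (-0.80). None of the 14 neuromuscular junction and ion channel genes reached 20 UMIs, and of the 4 myotendinous junction genes Ankrd1 alone did (70 and 34 UMIs, -0.45).

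The retinoic acid pathway, which the injected compounds act on, could hardly be measured in these barcodes. Of 22 pathway genes 2 had at least 20 UMIs. Rxrg, the retinoid X receptor of muscle, had 17 UMIs in 15 ATRA+agonist barcodes and 6 UMIs in 6 vehicle barcodes (log2 ratio 0.0062, -1.40 to 1.64; without the deepest -0.30). Aldh1a1, an enzyme of retinoic acid synthesis, had 41 UMIs in 36 barcodes and 10 UMIs in 9 (0.54, -0.48 to 1.70). Both intervals include 2-fold differences, so that a difference was not detectable at this depth. Together the 22 genes held 93 and 39 UMIs (236 and 280 CPM).

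Hemoglobin transcripts moved with the library. Hbb-bs had 352 UMIs in 161 of 275 ATRA+agonist barcodes and 375 UMIs in 79 of 84 vehicle barcodes (log2 ratio -1.59, -1.80 to -1.37; without the deepest -1.86). Hba-a1 and Hba-a2 had ratios of -1.67 and -1.44. The other barcodes of the libraries differed in the same way, with 25741 and 81753 CPM of red blood cell markers against 1552 and 4544 CPM in the fiber-rich barcodes. Eef1a1, a translation elongation factor that adult muscle fibers replace with a related form, had 92 and 90 UMIs (-1.46, and -0.77 without the deepest barcode). The part of free RNA of red blood cells and other cells in the remaining comparisons was not tested.

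When only Myh4-typed barcodes were compared, 29 of 862 genes (3.36%) were called higher and 18 (2.09%) lower in the ATRA+agonist library. Ankrd23 was then at 1892 and 1176 CPM (log2 ratio 0.69, 0.26 to 1.14). The lower genes included Hbb-bs (625 and 4253 CPM, -2.77) and Cacna1s, a calcium channel of the T-tubule (118 and 278 CPM, -1.23, -2.43 to -0.02). The endothelial marker Fabp4 was also lower (186 and 1347 CPM, -2.86). It had 22 UMIs in 9 of 75 ATRA+agonist and 63 UMIs in 7 of 28 vehicle barcodes. Over all fiber-rich barcodes Fabp4 had 271 UMIs in 43 of 275 and 101 UMIs in 19 of 84. Among the higher genes was Myf6, a muscle regulatory factor of mature fibers, with 33 UMIs in 20 of 75 ATRA+agonist barcodes and 3 UMIs in 3 of 28 vehicle barcodes (2.12, 0.45 to 4.47). Myf6 is outside the rule for named genes and was chosen after its values were seen.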

How the data were processed

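Droplet scRNA-Seq (10x Genomics 3′ chemistry) was measured in 2 libraries. The deposited files give, for each barcode, the raw count of UMIs of each gene. Per the study's methods the authors made them with Cell Ranger 7.2.0, and the submitters' processing notes name the build mm10 (GRCm38). The annotation release was not given in the sources used here, and gene positions were matched by identifier to GENCODE M21 on GRCm38. The symbol Aldoa is held by 2 identifiers, which were kept apart. The glycolysis list used only the identifier of the aldolase A gene itself. All barcodes of both matrices were used, with no doublet removal. Counting at the 3′ end reads paralogs such as Myh1, Myh2 and Myh4 with some uncertainty.

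Barcodes, gene lists and comparisons were chosen with earlier results of these data known. UMIs were summed per library and expressed as CPM, with exact Poisson intervals. Shares have exact Clopper-Pearson intervals, and log2 ratios an exact interval from the binomial split of a gene's UMIs between the libraries. A gene was tested with at least 20 UMIs over both libraries and called at 2-fold with an interval that left out 0. Genes at 0 in 1 library could not be called, 4 of the 2409 tested and 5 of 2214 without the deepest vehicle barcode. Depth sets the precision: the barcodes held 393596 and 139516 UMIs. Named genes were the rule genes, list genes with at least 20 UMIs, the 10 leading genes over other barcodes, and the 10 largest ratios in each direction with at least 100 UMIs. The interval method was also run on simulated counts with counting error only, which cannot show how calls behave under a larger spread between barcodes. That spread was larger here. The variance over barcodes was a median of 1.32 (ATRA+agonist) and 1.60 (vehicle without the deepest barcode) times the counting variance. It reached 116 and 51.9 times for Gm42418. Alternatives were other limits and genes of the rule, the study's filters, scaling, weighting, thinning and gene minimums. Leaving out the deepest vehicle barcode or 2 slow-rich ones, and using Myh4-typed barcodes only, were added after seeing the data. Python 3.11.15, numpy 2.4.6, scipy 1.17.1 and pandas 2.3.3 were used.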

Additional observations from a re-analysis of the deposited data

How the results depend on the processing

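The ATRA+agonist share of fiber-rich barcodes was the higher under every alternative run. The ratio ran from 4.07 (barcodes under 50% Hbb- UMIs as denominator) to 9.79 (fiber-rich barcodes under 0.25% Hbb- UMIs). It was 9.53 with the study's filters on the fiber-rich barcodes only. Both 9.79 and 9.53 keep all barcodes as the denominator. With the study's filters on the denominator as well, the ratio was 5.76 (4.05 to 8.20). The Myh4-typed share of ATRA+agonist barcodes was 61.7% at a 20% limit, 60.0% after thinning to 300 UMIs and 65.6% with at least 10 myosin UMIs, and that of vehicle barcodes 78.6% after thinning and 77.8% with at least 10 UMIs. Other markers were in 6.41% of ATRA+agonist barcodes at the 20% limit.

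Counts of called genes depended on the setting. Higher calls numbered 36 at the 20% limit, 28 with the study's filters, 38 without barcodes that carry other markers, 175 with equal weight per barcode, 15 after thinning, 37 without the 5 deepest barcodes of each library, 30 with a minimum of 50 UMIs and 29 in Myh4-typed barcodes. Lower calls numbered 28, 33, 34, 14, 32, 32 and 18 under the same settings except equal weight, 335 with no minimum and 34 without the deepest vehicle barcode.

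Some log2 ratios that were called changed sign. At the 20% limit these were Ttn (0.072), Malat1 (0.63), Igfbp5 (0.97), H19 (0.72), Sln (1.19), Eef1a1 (0.36) and Ryr1 (0.35). With the study's filters they were Malat1 (3.32), Igfbp5 (1.06), H19 (0.52), Eef1a1 (0.55) and Ryr1 (1.91), and without barcodes that carry other markers Malat1 (0.54), Igfbp5 (1.27), H19 (0.28) and Ryr1 (0.17). Without the 5 deepest barcodes they were Ttn (0.11), Malat1 (1.11), Igfbp5 (1.36), H19 (0.048) and Ryr1 (0.33), and without the deepest vehicle barcode Malat1 (1.10), Igfbp5 (1.42), H19 (0.32) and Ryr1 (0.39). Of the named ratios that were not called, those of Acta1, Tnnt3, Myh1 (from -0.79 to 0.94), Mylpf, Tnnc2, Pgam2, Tpm1 (from 0.079 to -0.12), Myoz1, Tpm2, Rxrg and Trim63 (from -0.52 to 0.12) also changed sign without that barcode. In Myh4-typed barcodes they were Igfbp5 (2.47), H19 (0.47), Sln (0.98) and Ryr1 (0.73). Myl3 was at -0.44 at a 5% limit and at -0.41 with slow genes added. Igfbp5 was at 0.80 with equal weight, and Gabarapl2 at -0.23 and H19 at 0.44 after thinning. Under 0.25% Hbb- UMIs Tnnt1 was at 0.23 and Myl2 at 0.090, and without the 2 slow-rich vehicle barcodes Tnnt1 was at 0.67, Myl2 at 0.44 and Tpm3 at 2.18. Removal of the deepest or the slow-rich barcodes shows directly that these signs rested on them, and the cause of the other changes was not tested.

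No paired analysis was possible because each group has 1 library. Differences between mice and doublets were not measured, and genes with few UMIs allow only large differences to be seen.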

Other observations

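The deepest vehicle barcode held transcripts that the other vehicle barcodes nearly lacked. Igf2, a fetal growth factor, had 34 UMIs in it and 1 in the other 83 vehicle barcodes, and Mecom, a transcription factor, had 33 and 0. Myh8 had 32 and 0, and the fiber genes Sln and Myh1 had 108 and 196 UMIs in it, against 36 and 63. It also held 56 UMIs of endothelial markers, with 19 of Flt1, 13 of Fabp4 and 10 of Pecam1. It had 5002 genes and thus did not pass the study's maximum of 5000.

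Some genes were carried by single barcodes. Gm42418, a transcript that overlaps ribosomal RNA repeats, had 3438 UMIs in the ATRA+agonist barcodes, of which 512 lay in 1 barcode. Tmsb4x, which binds free actin, had 124 of 260 UMIs in 1 barcode, and Csrp3, a stretch sensor of the Z-disc, had 87 of 182. Barcodes with more UMIs had a lower share of mitochondrial UMIs (Spearman's rho -0.63 over 275 ATRA+agonist and -0.54 over 84 vehicle barcodes), a description over barcodes that share a library and in which depth enters both measures. Igf2, Mecom, Gm42418 and Tmsb4x are outside the rule for named genes and were chosen after their values were seen.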
